A study of Mus musculus with 4 samples.

Results

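Autophagy wraps cell contents in a membrane and delivers them to lysosomes, and mitophagy is the same route applied to mitochondria. Lens fibre cells discard their mitochondria and other organelles as they mature, so the genes of this pathway are of particular interest in the lens. The account below covers 32 such genes, chosen by name as known components of the pathway, with earlier results of these data known. They were read from probe sets whose annotation names exactly 1 of them, with the brightest probe set standing for the gene. A probe set by that rule was found for 31 of the 32, out of 18193 genes named on the array. Optn has no probe set in the annotation used here. The probe sets of Bnip3l are annotated also to its pseudogene Bnip3l-ps, so these 2 cannot be told apart. Alox15 lay below the filter on dim genes, a mean log2 value of 4.86 or an intensity of about 13.0, which left 29 members in the gene-wise test of 11595 genes.

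RNA of whole lenses of newborn mice, at postnatal day 0.5, was hybridised to 4 Affymetrix arrays. Of these, 2 were from wild-type mice and 2 from mice lacking Hsf4 (HSF4-/-), a heat shock transcription factor of the lens, and all animals were labelled as 129S3 males. The labels number the arrays 1 and 2 in each group and do not say whether each came from separate animals, so p-values describe the scatter of the arrays, and this scatter may be technical. How Hsf4 was removed is not stated in the labels. Here the question was whether RNAs of the autophagy pathway differed in lenses without Hsf4.

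Levels are quantile normalized intensities. A log2 change is the knockout minus the wild-type mean of log2(intensity + 16), which understates the change of dim genes, with its standard error (SE) and 95% interval from limma. Adjusted p-values are from limma with Benjamini-Hochberg adjustment over all genes tested, with a threshold of 0.05. Levels of different genes cannot be set against each other, since each probe set has its own brightness.

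Several facts of the whole series bear on every value below. The Hsf4 probe set measured 505 and 138 on wild-type arrays 1 and 2 and 1212 and 413 on the arrays labelled knockout 1 and 2, so the labels were not borne out by this gene, and whether it covers the deleted part is not stated. Directions therefore refer to the arrays as labelled. Xist, expressed from an inactive X chromosome, measured 605 and 260 on wild-type and knockout array 1 and 58.0 and 9.01 on the arrays numbered 2, although all samples are labelled male. Eif2s3y, of the Y chromosome, went the other way, at 60.4 and 101 on wild-type and knockout array 1 and 208 and 161 on the arrays numbered 2. The labelled sex was therefore not borne out alike on all arrays, and its part in the member values was not tested. The deposited medians ranged from 6.58 on knockout array 2 to 21.4 on wild-type array 1. Knockout array 2 also had the highest 3' to 5' ratios of the control transcripts, 1.89 for actin against 1.51 to 1.67 on the others and 1.05 for Gapdh against 0.86 to 0.90. Striated muscle markers summed to 2854 and 1360 on the wild-type arrays and 141 and 144 on the knockout arrays, and 10 of 10 tested were lower with groups that did not overlap. Fibroblast and pericyte markers summed to 2099 and 2554 against 1535 and 1228, lower in 7 of 9. Lens fibre markers summed to between 41692 and 44933 on all 4 arrays and lens epithelium markers to between 2998 and 3603, so lens markers were bright on each. Log2 changes of single lens fibre markers ran from -1.25 to 1.00, and 0 of 9 passed the threshold (lowest adjusted p = 0.434 in limma). Of 9 tested, 2 were higher and 2 lower without overlap (44.4% in all, against 27.0% of all genes). Neural retina markers summed to 1455 on knockout array 2 and to between 2597 and 2957 on the others. In such whole-tissue RNA, fewer cells of a type and less RNA per cell cannot be told apart. The part of other cell types, of RNA quality and of the array number in the member values was not tested.

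Because Hsf4 belongs to the factors that bind heat shock elements, the promoters of the members were searched for these letters. RefSeq promoter sequences (build GRCm38.p6) were at hand for 23 of the 32 genes, as 26 promoters, and the 250 bases before each start site were read on both strands. The motif GAANNTTC was found in 1 of 26 promoters (3.85%) and in 6.69% of all 32851 promoters, and TTCNNGAA in 1 of 26 (3.85%) and in 7.17% of all. Both matches belong to Fyco1, in its 2 annotated promoters. The longer 3-unit form of the heat shock element, in either orientation, was in 0 of 26 and in 0.466% of all. The E-box CACGTG was in 5 of 26 (19.2%), those of Atg3, Atg5, Atg7, Bnip3 and Hif1a, and in 6.02% of all. Its longer form TCACGTGA, the core of the element bound by the lysosomal regulator TFEB, was in the promoter of Atg3 only and in 0.785% of all. These are matches of letters, not measured binding. The E-box searches were chosen after the values of the members had been seen. The Fyco1 promoters are shown since they alone held a heat shock element, and that of Atg3 for its TCACGTGA, each as the 250 bases before the start site on the gene's strand with the match in capitals.
Fyco1, chr9:123851900-123852149, minus strand: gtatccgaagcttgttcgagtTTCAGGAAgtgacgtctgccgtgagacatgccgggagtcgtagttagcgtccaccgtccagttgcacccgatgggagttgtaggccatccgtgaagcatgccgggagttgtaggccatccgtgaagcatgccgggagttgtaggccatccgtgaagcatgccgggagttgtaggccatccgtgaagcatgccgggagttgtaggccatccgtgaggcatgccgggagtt
Fyco1, chr9:123851662-123851911, minus strand: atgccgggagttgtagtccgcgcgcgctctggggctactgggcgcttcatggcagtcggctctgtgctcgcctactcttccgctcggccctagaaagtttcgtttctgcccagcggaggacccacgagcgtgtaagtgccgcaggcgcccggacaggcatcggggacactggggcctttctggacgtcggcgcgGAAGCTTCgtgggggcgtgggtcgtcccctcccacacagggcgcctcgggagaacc
Atg3, chr16:45158579-45158828, plus strand: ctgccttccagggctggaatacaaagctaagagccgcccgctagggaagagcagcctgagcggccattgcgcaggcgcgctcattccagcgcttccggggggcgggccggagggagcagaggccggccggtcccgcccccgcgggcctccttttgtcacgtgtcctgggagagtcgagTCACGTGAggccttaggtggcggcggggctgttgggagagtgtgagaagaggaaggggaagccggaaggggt

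None of the 29 autophagy genes tested passed the threshold in limma. Over all genes 0.0345% passed. None of the members had an unadjusted p under 0.05 at its brightest probe set either, against 2.35% of all genes. The member with the lowest unadjusted p was Map1lc3b at 0.0764. Log2 changes ran from -0.52 for Map1lc3b to 0.65 for Wipi1, and 13 of 29 were smaller than 0.1 in either direction. The median change of the members was 0.06 and that of all genes tested -0.01, and the median size of change regardless of direction was 0.17 and 0.20. All 29 intervals, each from the brightest probe set, included 0, and 20 of them lay within 2-fold on both sides. The outermost bounds were 2.15-fold lower, for Map1lc3b, and 2.77-fold higher, for Wipi1, so differences up to these sizes were not excluded for those genes.

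**Figure D1:**
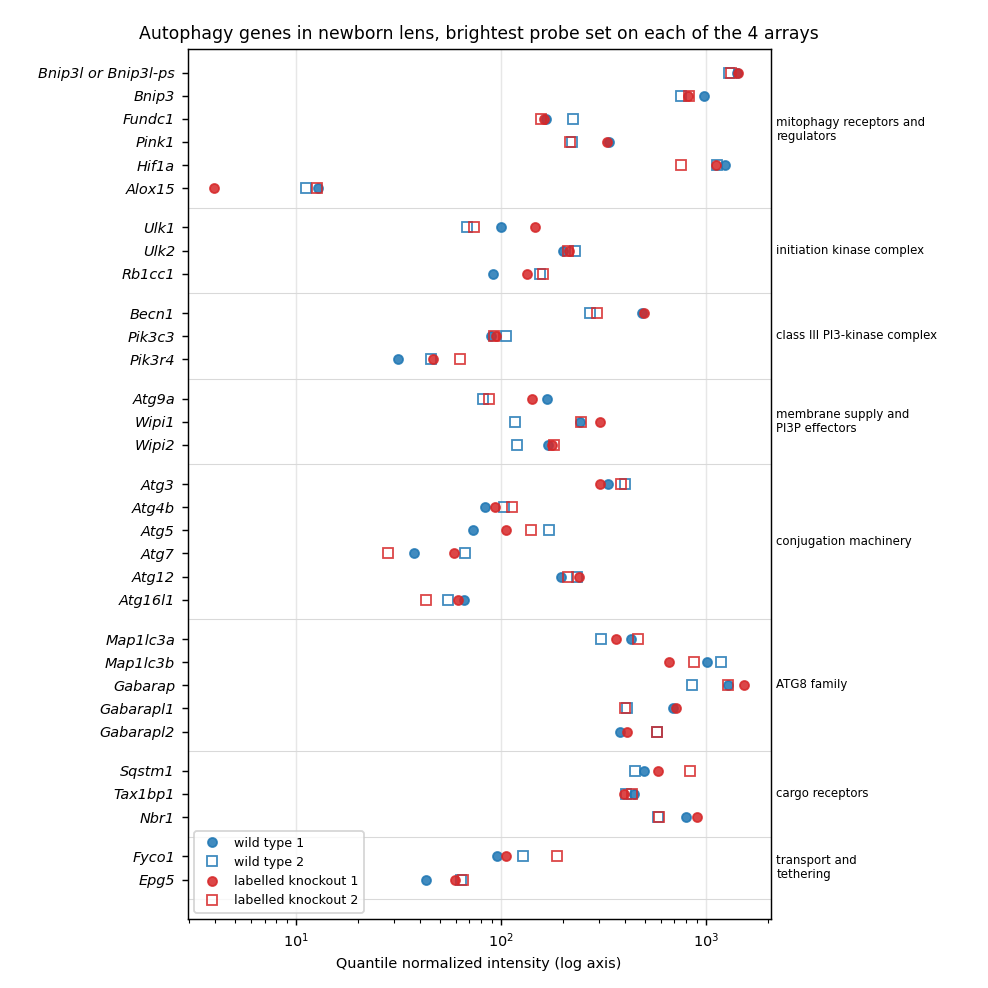
Quantile normalized intensity (log axis) of the brightest probe set of each of 31 autophagy genes, grouped by role, with 1 point per array; circles are arrays numbered 1, squares arrays numbered 2, blue wild type and red labelled knockout. For Bnip3l the 4 points nearly coincide, between 1291 and 1427, while the knockout points of Map1lc3b lie to the left of both wild-type points and those of Sqstm1 to the right.

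The groups did not overlap for 8 of the 29 members (27.6%), against 27.0% of all genes tested. Of these, 5 were higher on the arrays labelled knockout (12.7% of all genes were), namely Pik3r4, Wipi1, Wipi2, Gabarap and Sqstm1. The other 3, Fundc1, Hif1a and Map1lc3b, were lower (14.3% of all genes were). For 6 of the 8 the nearest arrays of the groups were less than 5% apart. Only Map1lc3b, with 15.6%, and Sqstm1, with 16.0%, had a wider gap. Within both array numbers, 13 members were higher on the knockout array (44.8%, against 26.1% of all genes) and 6 were lower (20.7%, against 27.5%). The remaining 10 had opposite directions within the numbers. Values as deposited and median centring moved the median of all genes to -0.46 and -0.28, so changes under them are given relative to that median. Above it lay 17 of the 29 members after quantile normalization, 16 with the trimmed mean and 13 under each of the other scalings. The 5 higher genes without overlap stayed above it and the 3 lower ones below it under all of them. Values as deposited and median centring differ by a constant per array, so relative to that median they are the same check. Not taken relative to it, the change turned negative as deposited for Pik3r4, Wipi2, Gabarap and Sqstm1, and with median centring for Wipi2 and Gabarap. As deposited, the higher ones lay above the median of all genes by 0.19 (Wipi2) to 0.52 (Wipi1).

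**Figure D2:**
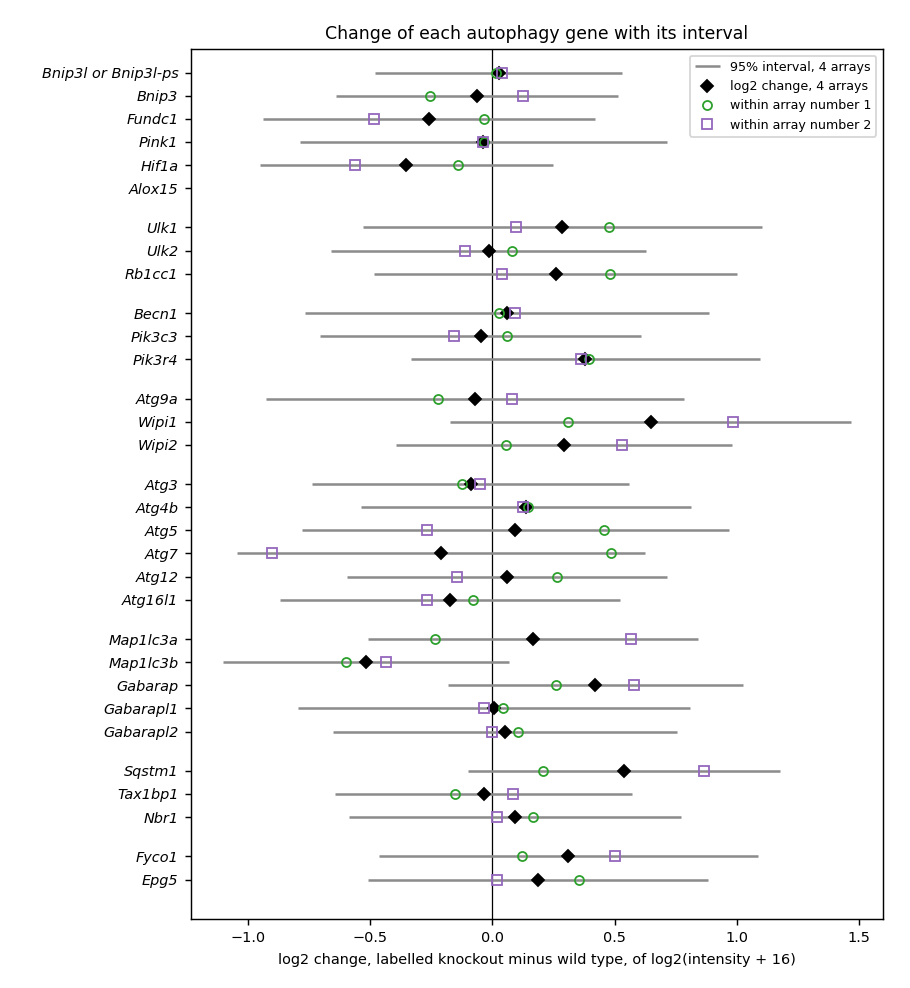
Log2 change of each autophagy gene (labelled knockout minus wild type, diamonds) with its 95% interval (bars), and the change within array numbers 1 (circles) and 2 (squares). Every bar crosses 0, and the widest reach 1.47 for Wipi1 and -1.10 for Map1lc3b; Alox15 was below the filter and has no bar.

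Of the genes that mark mitochondria for removal or regulate this step, 4 were tested beside Bnip3l, and none passed. Of these, 3 were lower within both array numbers (27.5% of all genes were) and none higher (26.1% of all genes were). Changes of the 4 ran from -0.35 to -0.04, and so few genes allow a description only. Bnip3l, a receptor of the outer mitochondrial membrane known for clearing mitochondria from maturing red cells and lens fibres, was read by a probe set shared with its pseudogene. It measured 1413 and 1291 on wild-type arrays 1 and 2 and 1427 and 1328 on knockout arrays 1 and 2. The groups overlapped, and the log2 change was 0.03 (SE 0.22, 95% interval -0.48 to 0.53, adjusted p = 1 in the limma fit over single probe sets). Its other probe sets had -0.08 and 0.16. The upper bound is an increase of 1.45-fold and the lower bound a decrease of 1.39-fold, so neither a rise nor a fall within those limits can be told from no change. Erythroid markers, of a lineage in which Bnip3l is also active, summed to 92.9 and 159 on the wild-type arrays and 136 and 521 on the knockout arrays, with the highest sum on knockout array 2.

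Bnip3, the related receptor induced by low oxygen, measured 975 and 750 in wild type and 815 and 821 in knockout. Both knockout values lay between the wild-type values, with a log2 change of -0.06 (SE 0.26, adjusted p = 1). Fundc1, a receptor that acts in hypoxia, measured 165 and 224 against 161 and 156. The groups were 2.74% apart at their nearest, and the log2 change was -0.26 (SE 0.30), with -0.04 within number 1 and -0.48 within number 2. Its other probe sets above the filter had -0.22 and 0.04. Pink1, the kinase that accumulates on damaged mitochondria, measured 336 and 222 against 327 and 215, a log2 change of -0.04 (SE 0.33) that was -0.04 within each number. Its levels followed the array number and not the group. The other probe set of Pink1 had 0.02.

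Hif1a, the oxygen-regulated transcription factor that induces Bnip3, measured 1235 and 1125 in wild type and 1120 and 756 in knockout. Only knockout array 2 stood clearly lower. The log2 change was -0.35 (SE 0.27, adjusted p = 1), and -0.07 without knockout array 2. Dimmer probe sets of Hif1a had 0.07 and 0.13, and with the mean of all its probe sets the change was 0.02. Alox15, a lipoxygenase that oxidises membrane lipids and takes part in the breakdown of organelles in reticulocytes, measured 12.7 and 11.2 against 3.98 and 12.6. It was too dim to test.

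Among the genes that start autophagy, the groups overlapped throughout. Ulk1, the initiating kinase, measured 100 and 68.0 in wild type and 145 and 73.9 in knockout (log2 change 0.29, SE 0.36), higher on array 1 than on array 2 in both groups. Its change was -0.14 without knockout array 1. Its paralogue Ulk2 measured 200 and 229 against 213 and 211, a change of -0.01 (SE 0.29). Rb1cc1, the scaffold of the kinase complex, measured 91.6 and 155 against 134 and 160, with 0.48 within number 1 and 0.04 within number 2. The change of 0.26 (SE 0.33) rested on the low value of wild-type array 1, without which it was -0.07.

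The lipid kinase complex makes the phosphoinositide on which the autophagosome membrane forms. Becn1, its regulatory subunit, measured 488 and 272 in wild type and 498 and 292 in knockout (log2 change 0.06, SE 0.37). Its second brightest probe set had 0.14. A much dimmer probe set of Becn1 had 1.08, resting on the arrays numbered 2, where it measured 5.64 in wild type and 81.0 in knockout, against 38.5 and 38.1 on the arrays numbered 1. In the limma fit over single probe sets its interval was 0.02 to 2.14 (unadjusted p = 0.0474), and it did not pass the threshold. Pik3c3, the catalytic subunit, measured 89.4 and 105 against 94.0 and 92.4, a change of -0.05 (SE 0.29). Pik3r4, the scaffold subunit, measured 31.4 and 45.2 against 46.3 and 62.8. Its log2 change was 0.38 (SE 0.32), the numbers 1 and 2 gave 0.39 and 0.36, its adjusted p was 1, and the nearest arrays of the groups were 2.49% apart.

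Of the genes for membrane supply and for reading that lipid, Wipi1 and Wipi2 were higher on both knockout arrays. Wipi1, a lipid-binding protein at the forming autophagosome, measured 242 and 116 in wild type and 304 and 246 in knockout. Wild-type array 2 alone stood low. The log2 change was 0.65 (SE 0.37, interval -0.17 to 1.47, adjusted p = 1), and without that array it was 0.16. The 6 probe sets of Wipi1 disagreed, from 0.57 for one other to -0.72 for the dimmest, so the mean over all of them had 0.16. Wipi2, which recruits the conjugation machinery, measured 170 and 120 against 177 and 180, a change of 0.29 (SE 0.31) that was 0.07 without wild-type array 2. Atg9a, the membrane protein of the vesicles that seed the autophagosome, measured 167 and 81.7 against 141 and 87.4 (-0.07, SE 0.38).

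**Figure D3:**
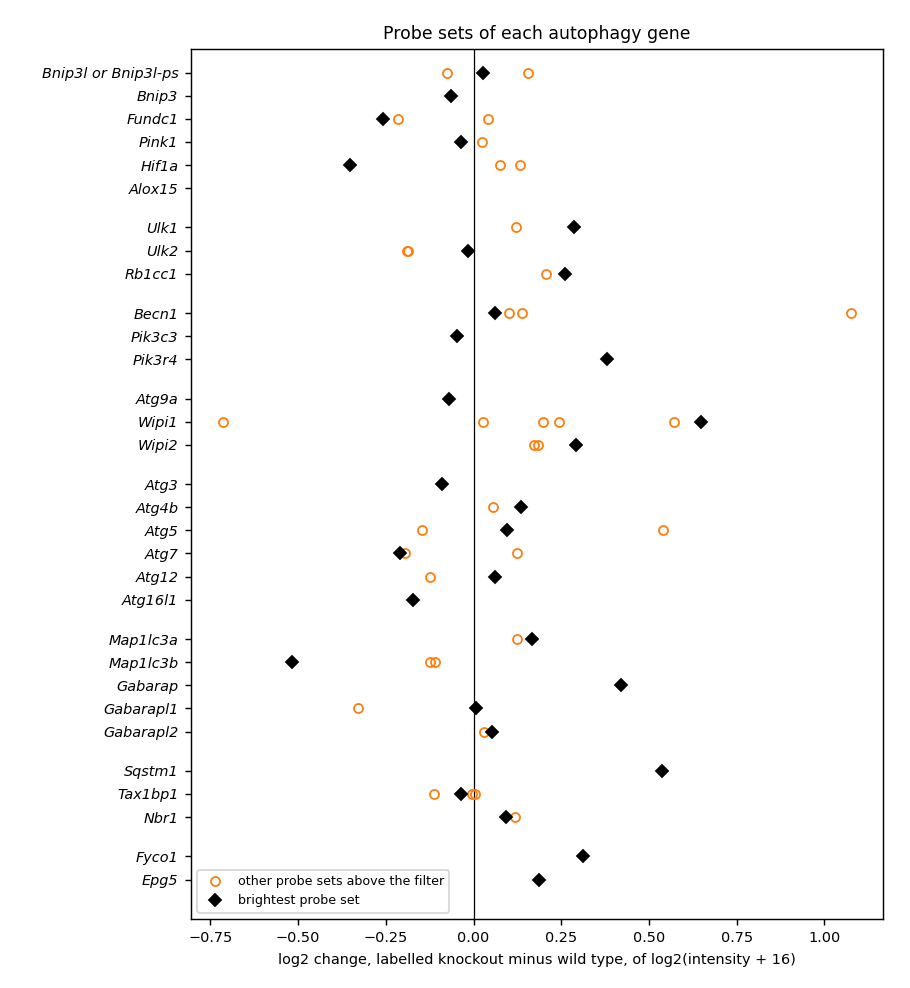
Log2 change of every probe set above the filter for each autophagy gene (diamonds, the brightest; circles, the others). Bnip3l, Pink1 and Nbr1 are measured alike by their probe sets, while the probe sets of Wipi1 span -0.72 to 0.65 and a dim one of Becn1 lies at 1.08.

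In the conjugation machinery, which attaches ATG8 proteins to lipid, the groups overlapped for all 6 genes, with log2 changes from -0.21 to 0.14. Atg3, the E2-like enzyme, measured 332 and 399 in wild type and 303 and 385 in knockout (-0.09, SE 0.29). Atg7, the E1-like enzyme, measured 37.4 and 66.4 against 58.7 and 28.1, with 0.49 within number 1 and -0.90 within number 2. It was the member whose directions within the numbers lay farthest apart. Atg4b, the protease that processes ATG8 proteins, measured 82.9 and 103 against 93.5 and 113 (0.14, SE 0.30), a similar small step within each number. Atg5, Atg12 and Atg16l1 form the complex that completes the conjugation. Atg5 measured 72.5 and 172 against 105 and 140 (0.09, SE 0.39). Atg12 measured 196 and 235 against 239 and 211 (0.06, SE 0.29). Atg16l1 measured 66.1 and 55.1 against 61.9 and 43.0 (-0.17, SE 0.31). For Atg5 both knockout values lay between the wild-type ones.

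The ATG8 family, whose members coat the autophagosome and bind cargo receptors, held the lowest change of all members and one of the higher ones. Map1lc3b, the LC3 protein most used as a marker of autophagosomes, measured 1005 and 1182 in wild type and 657 and 869 in knockout. Both knockout arrays were below both wild-type arrays. The log2 change was -0.52 (SE 0.26, interval -1.10 to 0.07, adjusted p = 1). Arrays numbered 1 gave -0.60 and those numbered 2 gave -0.44. Relative to the median of all genes it was -0.51, and -0.68 with values as deposited. When each array was left out, the change ran from -0.72 to -0.32. Its next probe sets gave a smaller difference, at 693 and 647 against 562 and 682 (-0.11, SE 0.26) and at 606 and 579 against 513 and 573 (-0.12, SE 0.26).

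Gabarap measured 1275 and 848 in wild type and 1531 and 1276 in knockout. Knockout array 2 and wild-type array 1 were only 0.0631% apart, and the log2 change was 0.42 (SE 0.27, interval -0.18 to 1.02, adjusted p = 1). It was 0.13 without wild-type array 2. Relative to the median of all genes it was 0.43, and 0.28 with values as deposited. Map1lc3a measured 431 and 307 against 364 and 462, with -0.23 within number 1 and 0.57 within number 2. Gabarapl1 measured 690 and 412 against 712 and 402 (0.01, SE 0.36), and Gabarapl2 measured 380 and 574 against 410 and 574 (0.05, SE 0.31). Gabarapl1 and Gabarapl2 repeated the level of their array number in both groups, and Map1lc3a did not. A dimmer probe set of Gabarapl1 had -0.33.

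Of the cargo receptors, which tether cargo to ATG8 proteins, Sqstm1 had the widest gap between groups of all members. Sqstm1, or p62, is itself degraded by autophagy and is also induced by oxidative stress. It measured 499 and 449 in wild type and 579 and 832 in knockout, so both knockout arrays were above both wild-type arrays, most of all knockout array 2. The log2 change was 0.54 (SE 0.28, interval -0.10 to 1.18, adjusted p = 1). Arrays numbered 1 gave 0.21 and those numbered 2 gave 0.87. It was 0.28 without knockout array 2. Relative to the median of all genes it was 0.55, and 0.39 with median centring or as deposited. Tax1bp1 measured 443 and 408 against 397 and 434 (-0.03, SE 0.27), and Nbr1 measured 800 and 580 against 899 and 588 (0.09, SE 0.30). For Tax1bp1 and Nbr1 the groups overlapped and the intervals reached no further than 1.71-fold.

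Fyco1 is an adaptor that links LC3-bearing vesicles to kinesin motors, and its human counterpart is a gene of inherited cataract. Of its 2 promoters shown above, 1 holds TTCNNGAA and the other GAANNTTC, found in 7.17% and 6.69% of all promoters. Fyco1 measured 95.2 and 127 in wild type and 105 and 187 in knockout. The groups overlapped, since knockout array 1 lay between the wild-type arrays, and only knockout array 2 stood higher. The log2 change was 0.31 (SE 0.35, interval -0.46 to 1.09, adjusted p = 1), or 0.12 from the arrays numbered 1 and 0.50 from those numbered 2. Without knockout array 2 the change was -0.06. A probe set of Fyco1 below the filter measured 3.98 and 6.03 against 13.0 and 32.1, and with both probe sets averaged the change was 0.57, without overlap. Epg5, a tether for fusion of autophagosomes with lysosomes, measured 42.9 and 63.9 against 59.2 and 65.0 (0.19, SE 0.31).

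**Figure D4:**
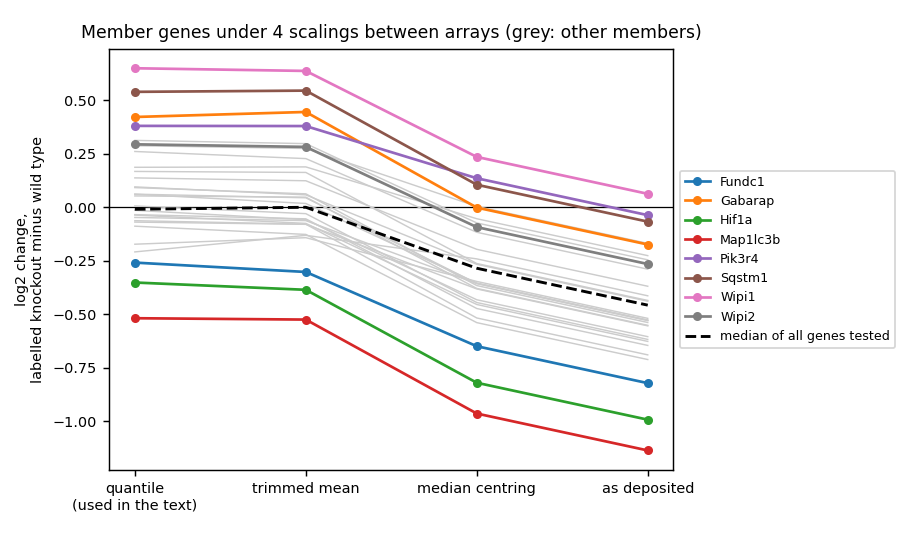
Log2 change (labelled knockout minus wild type) of the 29 tested autophagy genes under 4 ways of scaling the arrays; coloured lines are the 8 genes whose groups did not overlap after quantile normalization, grey lines the others, and the dashed line is the median of all genes tested. All lines fall together with the dashed line, to -0.46 as deposited, and Map1lc3b is lowest in each.

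Genes that work beside the members were counted from further lists and read against the 27.0% of all genes whose groups did not overlap. In autophagy core genes outside the members, 0 of 19 passed the threshold and 0 had groups that did not overlap, with a median log2 change of 0.12. Atg4a, a protease like Atg4b, had the lowest p among the higher ones, at 31.8 and 83.4 in wild type and 65.2 and 156 in knockout (0.78, SE 0.45, adjusted p = 1). Atg10, an E2-like enzyme for Atg12, had the lowest p among the lower ones (-0.42, SE 0.38). Its change was 0.32 within number 1 and -1.17 within number 2, and 0.03 without knockout array 2. In transport and fusion with lysosomes, 0 of 16 passed and 4 did not overlap, 2 in each direction, with a median of 0.10. With median centring 0 were higher and 1 lower, and as deposited 0 in either direction, where 15.4% and 4.46% of all genes did not overlap. Vps11 of the tethering complexes had 0.50 (SE 0.31), without overlap after quantile normalization. The fusion protein Vamp7 had -0.41 (SE 0.33), and its groups overlapped.

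In the list of other mitophagy genes and of mitochondrial dynamics, 0 of 21 passed, with a median of -0.06. The groups did not overlap for 2 (9.52%), both lower, where 14.3% of all genes were lower without overlap. With median centring or as deposited this count was 0, where 15.4% and 4.46% of all genes did not overlap. Tomm20, a receptor of the mitochondrial import pore, measured 2206 and 1978 in wild type and 1978 and 1585 in knockout (-0.24, SE 0.22). Its groups met at 1978, so it was not counted as without overlap. Ppargc1a, a coactivator of mitochondrial biogenesis, had 0.65 (SE 0.43), resting on knockout array 2 with 46.5 against 9.05 to 11.7 on the others.

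In the list of mTOR, AMPK and TFEB regulation, 0 of 20 passed the threshold and 1 had an unadjusted p under 0.05. Over all genes, 12.7% were higher without overlap and 27.0% did not overlap in either direction. In this list the groups did not overlap for 6 (30%), all higher, with a median of 0.14. With median centring or as deposited this count was 0, where 15.4% and 4.46% of all genes did not overlap, and the list's median lay 0.11 above that of all genes. Tsc2, a brake on mTOR signalling, measured 292 and 212 in wild type and 567 and 368 in knockout. Both knockout arrays were above both wild-type arrays (0.83, SE 0.32, adjusted p = 1), by 0.92 for number 1 and 0.75 for number 2. Prkaa1, a catalytic subunit of AMPK, had -0.36 (SE 0.55) with opposite directions within the numbers.

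In the hypoxia list, 0 of 19 passed and 1 had an unadjusted p under 0.05, with a median of -0.12. The groups did not overlap for 6 (31.6%, against 27.0% of all genes). Of these, 2 were higher and 4 lower, where 12.7% and 14.3% of all genes were. With median centring 0 were higher and 1 lower, and as deposited 0 in either direction, where 15.4% and 4.46% of all genes did not overlap. P4ha1, a collagen prolyl hydroxylase induced by hypoxia, measured 593 and 381 in wild type and 247 and 269 in knockout (-0.85, SE 0.31, adjusted p = 1). Egln2, an oxygen-sensing hydroxylase of HIF, measured 174 and 110 against 238 and 217 (0.65, SE 0.32). P4ha1 serves collagen synthesis, and the fibroblast and pericyte markers, which hold the fibrillar collagens, were also lower on the knockout arrays. The part of those cells in its value was not tested. Of other lipoxygenase genes and Alox5ap, which encodes a lipoxygenase activating protein, 0 of 4 passed. The groups did not overlap for 2 (50%, against 27.0% of all genes), both higher. As deposited 0 were higher and 2 lower without overlap, and with median centring 1 was higher and 1 lower. Aloxe3, a lipoxygenase, had 0.44 (SE 0.33) without overlap. Alox5ap had -0.29 (SE 0.43), and its groups overlapped. Both changes are from intensities of at most 36.1.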

How the data were processed

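The deposited values are probe set intensities on a linear scale, 1 per array. The labels and the file name no summarising software, and the deposited intensity values were on different scales between arrays. The planned quantile normalization, an offset of 16 and log2 were applied with limma 3.58.1 in R 4.3.3. The array holds 45101 probe sets, of which 64 are controls; 34945 had 1 gene symbol, 932 several and 9160 none. Each gene took its probe set with the highest mean log2 value, and genes reaching the median of the non-control probe sets were tested. The test was limma's moderated linear model with a variance trend. It was also run on data simulated from that same model with independent arrays. Such data cannot show how the test fares where arrays of one number deviate together. No set test was run. The number of arrays limits the precision. The replicate number was kept out of the fit. The alternatives were other scalings, filters, offsets, probe set rules, a variance model without trend, a block, and leaving out each array.

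The members and gene lists were chosen with earlier results of these data known. All members are named, and in the other lists the gene with the lowest p in each direction, where none passed. Ratios between members, the E-box motifs and the gaps between groups were chosen after values were seen. Promoters were from RefSeq.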

Additional observations from a re-analysis of the deposited data

How the results depend on the processing

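The count of members past the threshold was 0 under every alternative run, by limma with and without the variance trend. The median log2 change of the members, 0.06, was -0.53 with values as deposited and -0.35 with median centring, where the median of all genes was -0.46 and -0.28. The count of members whose groups did not overlap, 8, was 1 under both, Map1lc3b, where 4.46% and 15.4% of all genes did not overlap, against 27.0%. Leaving out each array in turn gave medians from -0.020 to 0.13 and counts of 15 to 22 without overlap, where a lone array makes overlap rarer (59.6% to 71.9% of all genes); the lone array is assumed to vary like the other group. The lowest median was without knockout array 1 and the highest without knockout array 2. Relative to the median of all genes, none of the 8 genes without overlap changed sign under the other scalings. Not taken relative to it, 4 of them did as deposited and 2 with median centring. With all probe sets of a gene averaged, Hif1a changed sign relative to that median (0.020). With the replicate block, 0 of 29 members passed and the lowest adjusted p was 0.10, for Map1lc3b, while calls over all genes went from 4 to 200 and unadjusted p under 0.05 from 0 to 5 members (17.2%, against 9.12% of all genes). Outside the members, Tsc2 and P4ha1 passed with the block (adjusted p = 0.00434 and 0.00327). Arrays of one number deviated together (correlation 0.43 over all genes tested and 0.57 over the members), but with 2 pairs the numbers are not shown to pair the samples. The block leaves 1 residual degree of freedom a gene.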

Other observations

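Ratios between deposited values on one array do not change when the array is multiplied by a factor, and both ratios below were chosen after the values had been seen. Sqstm1 over Map1lc3b, from the deposited intensities, was 0.501 and 0.363 on wild-type arrays 1 and 2 and 0.881 and 0.939 on knockout arrays 1 and 2. The knockout values were above both wild-type values. With the second brightest probe set of Map1lc3b the ratio was 0.715 and 0.687 against 1.02 and 1.23, again without overlap. Gabarap over Map1lc3b was 1.27 and 0.701 against 2.24 and 1.55, and with the second brightest probe set 1.81 and 1.33 against 2.61 and 2.03. Since the pairs were picked for their opposite differences, the lack of overlap followed from the choice and is given as a description only. With 2 arrays a group, an exact two-sided permutation test cannot give a p below 0.333, so the groups cannot be told apart by such a test.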
